A study of Mus musculus with 18 samples.

Results

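The interferon-stimulated antiviral genes are the genes that a cell switches on when type I or type III interferon reaches its receptors. A list of 31 such genes was followed through 18 microdissected mouse lung tumours. Of these, 25 had a probe set annotated to that gene alone among 12393 genes measured, and 21 of the 25 passed the filter on low signals that left 7300 genes for testing. The 6 genes without such a probe set (Isg15, Ifi44, Ddx58, Xaf1, Herc6 and Samd9l) are not analysed here. Mx2, Oas2, Oas3 and Oasl1 were measured but not tested, because their signal rarely rose above the middle of the array. Where a gene had several probe sets, the one with the highest mean over the 18 arrays was used.

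The tumours came from 6 mice of strain C57/B6-129SvJae, 10 weeks old, and every value is a log2 signal from a single-colour array. Treated mice received tamoxifen intraperitoneally in 2 injections, and their tumours were taken on day 7 after the first one. The labels do not say what the untreated mice received. They call the treated tumours p53 restored and sort all tumours into grade 3, the adenocarcinomas, and grade 2, the adenomas. The labels give no alleles. In the published model, all mice carry p53 alleles silenced by a removable stop cassette and a Cre recombinase that tamoxifen activates throughout the body, so p53 returns in stromal and immune cells as well as in tumour cells. Mouse 8688, a female, supplied all 6 treated grade 3 tumours. The 4 treated grade 2 tumours were 8688T8, 8688T9 and 8688T10 from the same mouse and 8639T4 from a male. The 4 untreated grade 3 tumours were 8584T3, 8629T10, 8629T12 and 8565T1, and the 4 untreated grade 2 tumours were 8700T1, 8700T3, 8565T3 and 8565T4, all from males. For grade 3, treatment cannot be told apart from mouse and sex. For grade 2 only 8639T4 separates treatment from sex and from mouse 8688. No mouse carried both treated and untreated tumours, so treatment cannot be told apart from mouse in either grade. Tumours of 1 mouse are not independent, so p-values over tumours are too small.

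Array medians ran from 6.05 to 6.18, and the number of arrays limits the precision. The lung label held: Sftpc, the surfactant gene of alveolar type 2 cells, ran from 12.31 to 13.49, and the epithelial gene Epcam from 9.90 to 10.68. Nkx2-1, a lung lineage factor, lay below the array median in all 18 tumours (3.21 to 4.26). Ptprc, which marks blood cells, ran from 10.20 to 11.44, so the pieces held immune cells too. In such bulk tissue, fewer cells of a type and less RNA per cell cannot be told apart. The excess of 3′ over 5′ signal in control transcripts, a sign of RNA degradation, was 2.62 in 8688T3 and 1.85 in 8639T4, against 0.62 to 1.05 in the other tumours. Eif2s3y, a Y-linked gene, ran from 1.55 to 2.06 in the 9 tumours of the female mouse and from 10.90 to 12.02 in the other 9, which matches the labels.

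Cells sense viral or misplaced RNA through helicases such as the products of Ifih1 and Dhx58, which leads to interferon release. Interferon binding at the cell surface activates signal transducers such as STAT2, which works with IRF9 in the complex ISGF3. That complex binds the interferon-stimulated response element (ISRE) in promoters. The induced proteins block viral translation, degrade viral RNA or trap particles, and some, such as IRF7 and USP18, amplify or restrain the response. In lung, epithelial cells and macrophages are both known to mount this programme.

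The promoters of 4 members are shown because they carry the element through which the genes are known to be induced, in 3 genes that varied widely between tumours and in 1, Eif2ak2, that varied little between groups. The sequences are RefSeq promoters of build GRCm38.p6, from 250 bases before the transcription start to 50 from it on, 5′ to 3′ on the gene's strand, with matches to the ISRE core in capitals. The core was searched on both strands as TTTC, any 2 bases and TTTC again. Ifit3 lies on the plus strand at chr19:34583279-34583578, Ifit1 on the plus strand at chr19:34640639-34640938, Rsad2 on the minus strand at chr12:26456403-26456702 and Eif2ak2 on the minus strand at chr17:78882523-78882822.
Ifit3: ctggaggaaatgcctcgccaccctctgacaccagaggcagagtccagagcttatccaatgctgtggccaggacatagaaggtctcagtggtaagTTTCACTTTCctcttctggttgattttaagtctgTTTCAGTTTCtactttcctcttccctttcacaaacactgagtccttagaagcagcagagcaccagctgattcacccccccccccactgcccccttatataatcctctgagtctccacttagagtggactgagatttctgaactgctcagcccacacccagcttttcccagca
Ifit1: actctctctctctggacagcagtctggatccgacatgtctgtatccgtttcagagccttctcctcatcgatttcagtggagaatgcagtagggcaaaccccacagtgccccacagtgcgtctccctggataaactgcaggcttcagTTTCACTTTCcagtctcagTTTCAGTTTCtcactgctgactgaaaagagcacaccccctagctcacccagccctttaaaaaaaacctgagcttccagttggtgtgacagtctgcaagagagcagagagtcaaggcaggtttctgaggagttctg
Rsad2: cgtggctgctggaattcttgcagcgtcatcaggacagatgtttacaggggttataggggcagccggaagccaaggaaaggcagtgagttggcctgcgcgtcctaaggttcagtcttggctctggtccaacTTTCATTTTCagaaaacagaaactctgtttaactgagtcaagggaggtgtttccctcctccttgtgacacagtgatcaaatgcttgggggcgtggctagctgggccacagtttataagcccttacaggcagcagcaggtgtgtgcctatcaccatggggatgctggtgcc
Eif2ak2: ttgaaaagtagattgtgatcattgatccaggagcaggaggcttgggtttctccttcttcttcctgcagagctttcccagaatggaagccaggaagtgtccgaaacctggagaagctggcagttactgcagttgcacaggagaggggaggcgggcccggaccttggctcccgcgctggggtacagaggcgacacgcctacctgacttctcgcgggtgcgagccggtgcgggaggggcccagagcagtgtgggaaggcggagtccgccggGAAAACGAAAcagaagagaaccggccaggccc

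With the start counted as base 0, the matches began at bases -156 and -122 in Ifit3, at -104 and -85 in Ifit1 and at -120 in Rsad2. The annotated Ifit3 gene begins at chr19:34583119, before its window. The Ifit3 positions thus count from a start inside the gene. The match in Eif2ak2 lay past the start, at base 18, and on the opposite strand. RefSeq promoters were at hand for 22 of the 31 named genes (24 promoters), and 10 of these promoters (41.7%) held the motif, against 3.44% of all 32851 promoters. Among the 16 measured members with promoters (18 promoters), 8 promoters held it (44.4%), those of Bst2, Eif2ak2, Ifih1, Ifit1, Ifit3, Oas3, Rsad2 and Stat2. In Bst2 the 2 ISRE matches overlapped each other. The promoters of Oasl2 and Irf7 held 0 matches, although their signals ranged over 3.255 and 2.3451 between tumours. A match describes letters in this window and is no evidence of binding.

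The first question was how the genes differed between treated and untreated grade 3 tumours. Ifit3 was higher in the treated tumours by 1.99 on the log2 scale (SE 0.39, 95% interval 1.17 to 2.81), and it was the only member that passed the test over all 7300 genes (limma with the mouse as a random block, Benjamini-Hochberg adjusted p = 0.02785). That is 1 of 21 tested members, where 0.192% of all tested genes were called higher and 0.274% lower. Further members had larger signals in the treated tumours without passing: 20 of 21 fitted differences lay above 0, against 56.9% of all genes, with a median of 0.46 over the members and 0.04 over all genes. Before adjustment, 11 of 21 members had p under 0.05 and were higher, against 5.23% of all genes. Fitted differences above 1 were found for 8 members, against 1.29% of all genes. The ranges of the groups did not touch for 7 of the 21 tested members (Ifit1, Ifit3, Irf7, Usp18, Ifih1, Bst2 and Ifi35), against 2.84% of all genes. The filter kept a gene if 4 or more arrays had it above their median. Of the 21 tested members, 13 were above it on all 18 arrays, 20 on 12 or more and Stat2 on 4. Those 4 were the treated tumours 8688T1, 8688T5, 8688T11 and 8688T10, all of mouse 8688. Stat2 thus entered the test through treated tumours alone, and it is counted among the 20 of 21 above 0.

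In grade 2 no member passed, where 0.0274% of all genes were called higher and 0.0411% lower. Of the members, 13 of 21 had fitted differences above 0 (53.9% of all genes), with a median of 0.06 against 0.02. Before adjustment, Rsad2 and Ifit2 had p under 0.05, against 3.78% of all genes that did so on the higher side. The groups did not overlap for 2 of 21 members, Rsad2 and Ifih1, against 4.04% of all genes on the higher side. The test of whether the treatment difference itself differed between grades, the interaction, called 0 members and 0% of all genes by limma. In it, 6 of 21 members were higher before adjustment, against 5.4% of all genes, and 20 of 21 lay above 0, against 52.8%. The interaction median was 0.39 over the members and 0.02 over all genes. Other lists lay on the same side: 9 of 9 endothelial markers were above 0 (median 0.58), 22 of 23 interferon-gamma genes (0.53), 7 of 8 lung epithelium markers (0.38) and 7 of 8 fibroblast markers (0.37), and their part in the members' values was not tested. Without 8688T3 and 8639T4, the tumours with the 3′ excess, 20 of 21 members lay above 0 in grade 2 as well, with a median of 0.32. The interaction median was 0.34. None passed in either grade, where 0.233% of all genes were called higher in grade 3 and 0.0822% in grade 2. Leaving out 8639T4 also removes the only treated male, so all treated tumours then come from mouse 8688. The share of all genes above 0 was not taken for this fit.

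**Figure D1:**
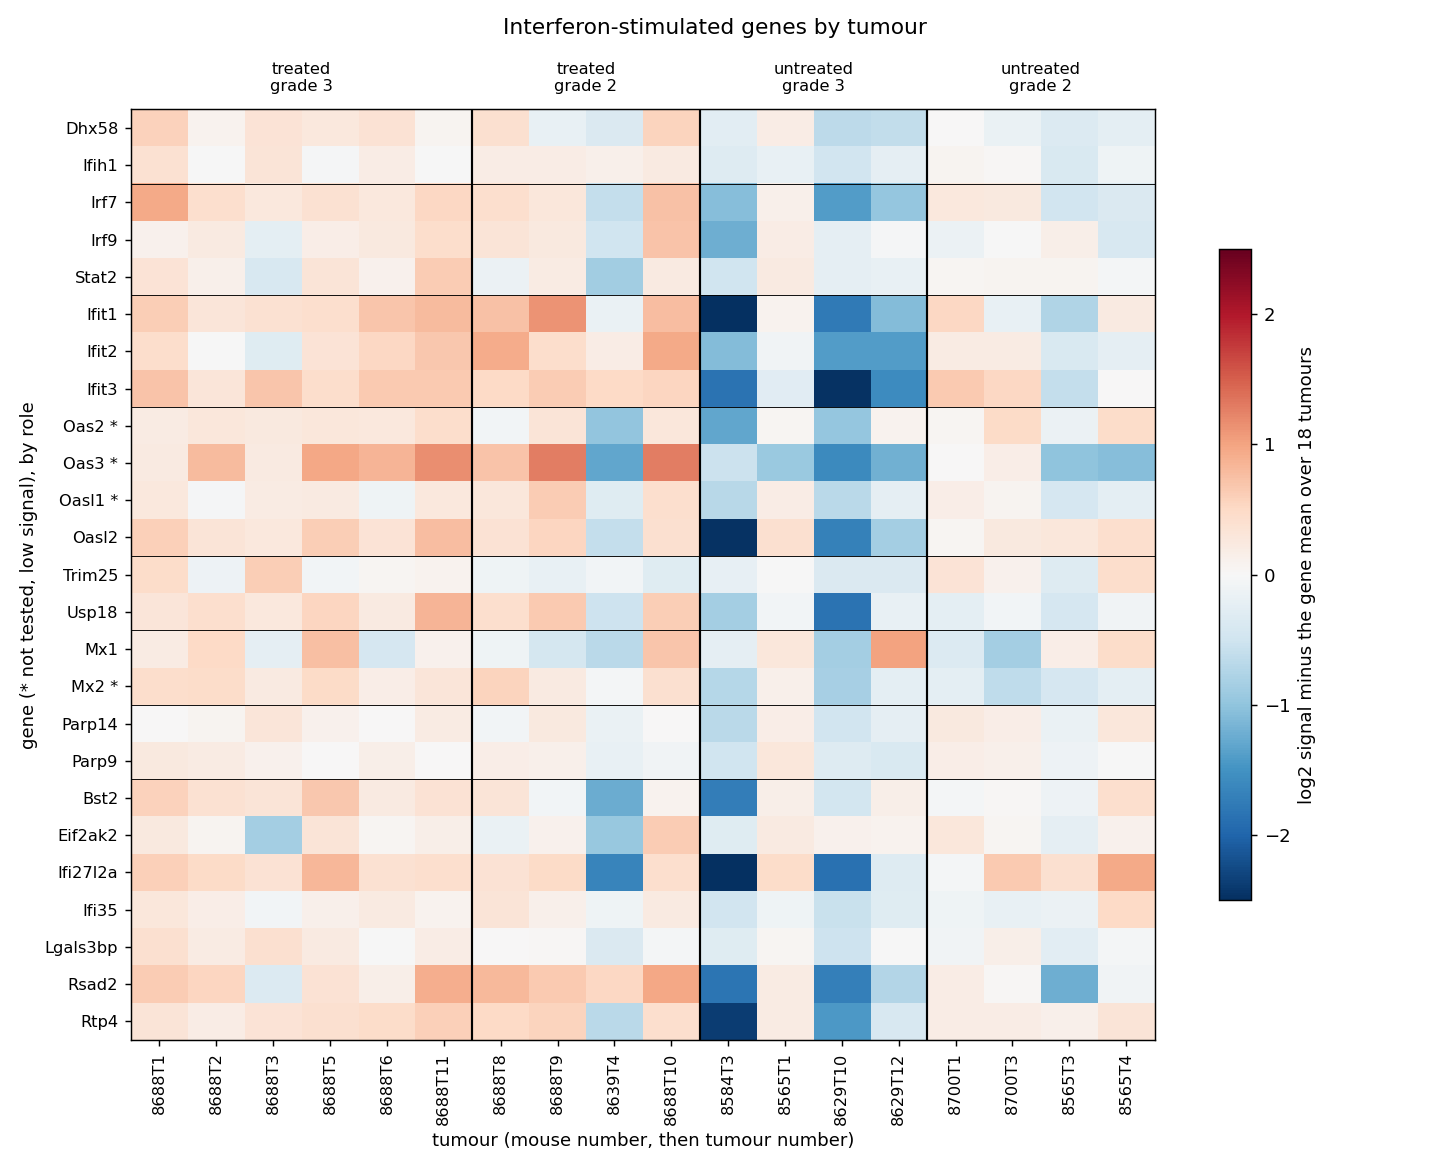
Log2 signal of the 25 measured genes (rows, by role) in each of 18 tumours (columns, by group), as the difference from the gene's mean over all tumours; red is higher and blue lower, and an asterisk marks the 4 genes not tested. Blue fields gather in the untreated grade 3 tumours 8584T3, 8629T10 and 8629T12 and, for some genes, in the treated grade 2 tumour 8639T4, while 8565T1 resembles the remaining tumours.

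The IFIT proteins bind foreign RNA and block its translation. Their genes Ifit1, Ifit2 and Ifit3 are neighbours on chromosome 19, and array probes may not tell Ifit3 from its near-identical neighbour Ifit3b. Ifit3 ran from 9.20 to 9.61 (median 9.56) in the 6 treated grade 3 tumours. Its values were 9.39 in 8688T8, 9.53 in 8688T9, 9.44 in 8688T10 and 9.39 in 8639T4 in treated grade 2. In untreated grade 3 tumours it was 7.05 in 8584T3, 6.43 in 8629T10, 7.32 in 8629T12 and 8.61 in 8565T1. Every untreated grade 3 value was thus below every treated one and 8584T3, 8629T10 and 8629T12 were the lowest 3 of the 18 tumours. The untreated grade 2 tumours held 9.55 in 8700T1, 9.42 in 8700T3, 8.30 in 8565T3 and 8.91 in 8565T4, and overlapped the treated tumours through mouse 8700. Its grade 3 mean was 9.48 ± 0.16 (SD, n = 6) after treatment and 7.35 ± 0.92 (SD, n = 4) without it. The grade 2 difference was 0.57 (SE 0.40, adjusted p = 0.8325), and the interaction was 1.42 (SE 0.45, adjusted p = 0.5393). Averaged by mouse, the grade 3 difference was 1.97 with a two-sided exact permutation p of 0.25, the smallest that 1 treated against 3 untreated mice allow. The grade 2 difference over 2 treated and 2 untreated mice was 0.38 (two-sided exact permutation p = 1). Each of the 6 splits has a mirror split of the same size, so this test could not give a small p.

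Ifit1 ran from 9.17 to 9.65 (median 9.39) in treated grade 3 and was 6.20 in 8584T3, 7.10 in 8629T10, 7.78 in 8629T12 and 8.96 in 8565T1 in untreated grade 3. It was 9.60 in 8688T8, 10.00 in 8688T9, 9.64 in 8688T10 and 8.71 in 8639T4 in treated grade 2, and 9.38 in 8700T1, 8.69 in 8700T3, 8.11 in 8565T3 and 9.09 in 8565T4 in untreated grade 2. The grade 3 groups did not overlap, because 8565T1 stayed just under the lowest treated grade 3 tumour, while the grade 2 groups did. The fitted grade 3 difference was 1.66 (SE 0.49, adjusted p = 0.1714), and that of grade 2 0.78 (SE 0.50, adjusted p = 0.8197). Ifit2 averaged 8.06 ± 0.37 (SD, n = 6) after treatment and 6.78 ± 0.62 (SD, n = 4) without it in grade 3, and 8.41 ± 0.38 and 7.74 ± 0.30 (SD, n = 4 each) in grade 2. Its differences were 1.08 (SE 0.33, adjusted p = 0.1931) in grade 3 and 0.75 (SE 0.33, adjusted p = 0.6952) in grade 2, and neither passed.

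**Figure D2:**
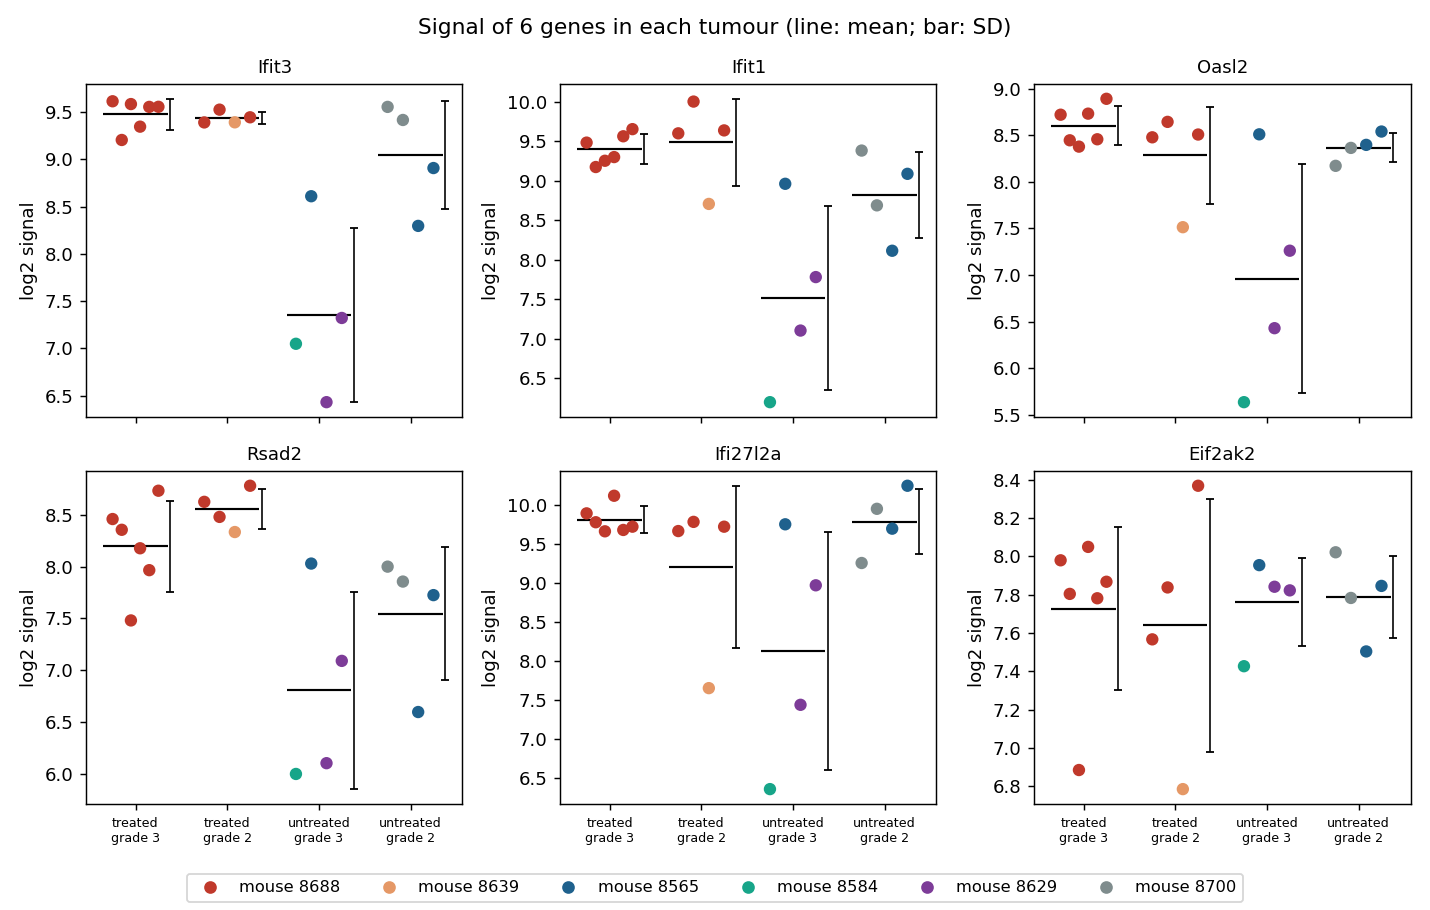
Log2 signal of Ifit3, Ifit1, Oasl2, Rsad2, Ifi27l2a and Eif2ak2 in every tumour (points, coloured by mouse) of the 4 groups, with the group mean (line) and SD (bar). Ifit3 in untreated grade 3 tumours spans 6.43 to 8.61, below all 10 treated tumours, whereas Eif2ak2 is lowest in the treated tumours 8688T3 and 8639T4.

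The 2′-5′ oligoadenylate synthetase family senses double-stranded RNA and activates the nuclease RNase L. Oasl2 encodes a member with ubiquitin-like domains. It ran from 8.38 to 8.89 (median 8.59) in treated grade 3, and was 5.64 in 8584T3, 6.43 in 8629T10, 7.26 in 8629T12 and 8.51 in 8565T1 in untreated grade 3. In grade 2 it was 8.48 in 8688T8, 8.64 in 8688T9, 8.51 in 8688T10 and 7.51 in 8639T4 among the treated and 8.17 in 8700T1, 8.36 in 8700T3, 8.40 in 8565T3 and 8.54 in 8565T4 among the untreated tumours. In both grades the groups overlapped: 8565T1 lay inside the treated grade 3 range, and 8639T4 was the lowest grade 2 tumour. Its fitted differences were 1.44 (SE 0.45, adjusted p = 0.2213) in grade 3 and 0.03 (SE 0.46, adjusted p = 0.9914) in grade 2, with an interaction of 1.41 (SE 0.53, adjusted p = 0.5393).

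Oas3, Oas2 and Oasl1 had low signals. Oas3 ran from 5.21 to 6.14 (median 5.80) in treated grade 3 and was 4.44 in 8584T3, 3.40 in 8629T10, 3.78 in 8629T12 and 4.06 in 8565T1 in untreated grade 3. In grade 2, Oas3 was 5.70 in 8688T8, 6.25 in 8688T9, 6.26 in 8688T10 and 3.67 in 8639T4 in treated and 4.98 in 8700T1, 5.14 in 8700T3, 3.97 in 8565T3 and 3.91 in 8565T4 in untreated tumours. The grade 3 groups did not overlap for Oas3, and 8565T1 was here as low as the other untreated grade 3 tumours. Oas2 did not overlap in grade 3 either, with means of 5.09 ± 0.08 (SD, n = 6) and 4.26 ± 0.71 (SD, n = 4). Oasl1, whose mouse protein is known to restrain IRF7 translation, averaged 4.23 ± 0.16 (SD, n = 6) after treatment and 3.74 ± 0.42 (SD, n = 4) without it, with overlap.

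Of the RNA sensors, Ifih1 encodes MDA5 and Dhx58 encodes LGP2, which assists it. Ifih1 ran from 8.45 to 8.85 (median 8.56) in treated grade 3 and was 8.15, 7.99, 8.24 and 8.29 in 8584T3, 8629T10, 8629T12 and 8565T1. In grade 2 it was 8.66 in 8688T8, 8.65 in 8688T9, 8.70 in 8688T10 and 8.60 in 8639T4 with treatment and 8.54 in 8700T1, 8.50 in 8700T3, 8.09 in 8565T3 and 8.36 in 8565T4 without. Ifih1 groups did not overlap in either grade, and the differences were small, 0.41 (SE 0.15, adjusted p = 0.3471) in grade 3 and 0.30 (SE 0.15, adjusted p = 0.7503) in grade 2. Dhx58 ran from 6.68 to 7.18 (median 6.91) in treated grade 3, against 6.33, 5.95, 5.98 and 6.80 in 8584T3, 8629T10, 8629T12 and 8565T1. In grade 2, Dhx58 was 7.01, 6.43, 7.17 and 6.24 in 8688T8, 8688T9, 8688T10 and 8639T4 and 6.61, 6.44, 6.27 and 6.36 in 8700T1, 8700T3, 8565T3 and 8565T4. The Dhx58 groups overlapped in both grades, with a fitted grade 3 difference of 0.46 (SE 0.24, adjusted p = 0.6012).

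Among the transcription factors, Irf7 encodes the amplifier of interferon production and is itself induced. Irf7 ran from 6.42 to 7.10 (median 6.55) in treated grade 3, and its untreated values were 5.09 in 8584T3, 4.75 in 8629T10, 5.18 in 8629T12 and 6.27 in 8565T1. In grade 2, Irf7 was 6.58 in 8688T8, 6.44 in 8688T9, 6.88 in 8688T10 and 5.55 in 8639T4 with treatment and 6.41 in 8700T1, 6.38 in 8700T3, 5.68 in 8565T3 and 5.79 in 8565T4 without. The grade 3 groups did not overlap (1.01 (SE 0.35, adjusted p = 0.2906)), and in grade 2 the treated tumour 8639T4 was the lowest of all 8. Stat2 and Irf9 encode subunits of ISGF3. Stat2 ran from 5.50 to 6.53 (median 6.11) in treated grade 3, and was 5.39, 5.67, 5.72 and 6.11 in 8584T3, 8629T10, 8629T12 and 8565T1. In grade 2, Stat2 was 5.75, 6.10, 6.12 and 5.01 in 8688T8, 8688T9, 8688T10 and 8639T4 and 5.94, 5.96, 5.96 and 5.84 in 8700T1, 8700T3, 8565T3 and 8565T4. Its groups overlapped in both grades, as did those of Irf9, whose means ran from 8.99 ± 0.62 (SD, n = 4) in untreated grade 3 to 9.51 ± 0.50 (SD, n = 4) in treated grade 2. The fitted grade 3 differences were 0.18 (SE 0.27, adjusted p = 0.8622) for Stat2 and 0.33 (SE 0.30, adjusted p = 0.7691) for Irf9.

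Usp18 encodes the protease that removes ISG15 from proteins and damps interferon receptor signalling. It ran from 8.55 to 9.16 (median 8.68) in treated and was 7.47 in 8584T3, 6.47 in 8629T10, 8.13 in 8629T12 and 8.24 in 8565T1 in untreated grade 3 tumours. In grade 2 it was 8.73, 8.97, 8.93 and 7.80 in 8688T8, 8688T9, 8688T10 and 8639T4, and 8.08, 8.25, 7.90 and 8.22 in 8700T1, 8700T3, 8565T3 and 8565T4. The grade 3 groups were apart (0.93 (SE 0.37, adjusted p = 0.4092)), and the grade 2 groups overlapped through 8639T4. Trim25 encodes the ubiquitin ligase that acts on the RIG-I sensor pathway. Trim25 ran from 9.72 to 10.46 (median 9.90) in treated grade 3 and was 9.63, 9.47, 9.48 and 9.82 in 8584T3, 8629T10, 8629T12 and 8565T1. In grade 2, Trim25 was 9.74, 9.65, 9.54 and 9.78 in 8688T8, 8688T9, 8688T10 and 8639T4 and 10.17, 9.95, 9.51 and 10.27 in 8700T1, 8700T3, 8565T3 and 8565T4. Its fitted differences were 0.40 (SE 0.22, adjusted p = 0.6242) in grade 3 and -0.26 (SE 0.22, adjusted p = 0.8493) in grade 2. Both grades overlapped. The opposite signs were seen only with the probe set used, whose plain differences of group means were 0.41 and -0.30 in the same order. Another Trim25 probe set, with a mean of 9.32, gave 0.23 and 0.04. The remaining Trim25 probe set, with a mean of 4.99 and below the median of every array, gave 0.02 and 0.22.

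The Mx GTPases trap viral nucleocapsids, and C57BL/6 mice are known to carry a defective Mx1 gene. Mx1 ran from 5.92 to 7.09 (median 6.50) in treated grade 3 and was 6.12 in 8584T3, 5.50 in 8629T10, 7.35 in 8629T12 and 6.63 in 8565T1 in untreated grade 3. Its highest value of all 18 tumours was in the untreated tumour 8629T12, in which most members were low. Mx1 was 6.24, 5.91, 7.04 and 5.68 in the treated grade 2 tumours 8688T8, 8688T9, 8688T10 and 8639T4, and 6.01, 5.51, 6.53 and 6.82 in the untreated ones 8700T1, 8700T3, 8565T3 and 8565T4. The fitted differences were 0.03 (SE 0.46, adjusted p = 0.9905) in grade 3 and -0.05 (SE 0.47, adjusted p = 0.9891) in grade 2, with 95% intervals of -0.93 to 0.99 and -1.02 to 0.93. Mx2 was low in every tumour, from 3.51 to 3.83 (median 3.71) in treated grade 3 against 2.63, 2.51, 3.11 and 3.47 in 8584T3, 8629T10, 8629T12 and 8565T1. Mx2 was 3.91, 3.57, 3.75 and 3.30 in 8688T8, 8688T9, 8688T10 and 8639T4 and 3.11, 2.71, 2.92 and 3.11 in 8700T1, 8700T3, 8565T3 and 8565T4. Though low, Mx2 did not overlap between treated and untreated tumours in either grade.

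Parp9 and Parp14 encode ADP-ribosyltransferase family proteins of the interferon response. Parp9 ran from 8.46 to 8.69 (median 8.57) in treated grade 3 and was 7.95, 8.12, 8.07 and 8.74 in 8584T3, 8629T10, 8629T12 and 8565T1, so 8565T1 exceeded every treated grade 3 tumour. Parp14 ran from 9.16 to 9.45 (median 9.24), against 8.47, 8.68, 8.92 and 9.32 in the same untreated tumours. In grade 2, Parp9 was 8.62, 8.58, 8.36 and 8.27 in 8688T8, 8688T9, 8688T10 and 8639T4 and 8.61, 8.57, 8.32 and 8.43 in 8700T1, 8700T3, 8565T3 and 8565T4. Parp14 was 9.09, 9.40, 9.16 and 8.98 and 9.39, 9.32, 8.99 and 9.44 in those same tumours. Both genes overlapped between treated and untreated tumours in both grades, and their grade 3 differences were 0.27 (SE 0.17, adjusted p = 0.6552) for Parp9 and 0.36 (SE 0.19, adjusted p = 0.6047) for Parp14.

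Of the other effectors, Ifi27l2a, which encodes a small membrane protein, had the largest range over the 18 tumours of any member, 3.89. It ran from 9.66 to 10.12 (median 9.75) in treated grade 3 and was 6.36 in 8584T3, 7.44 in 8629T10, 8.97 in 8629T12 and 9.75 in 8565T1 in untreated grade 3. In grade 2, Ifi27l2a was 9.66 in 8688T8, 9.78 in 8688T9, 9.72 in 8688T10 and 7.65 in 8639T4 with treatment and 9.25 in 8700T1, 9.95 in 8700T3, 9.69 in 8565T3 and 10.24 in 8565T4 without. The range thus came from 8584T3, 8629T10 and 8639T4, and the fitted differences of 1.33 (SE 0.62, adjusted p = 0.5608) in grade 3 and -0.55 (SE 0.63, adjusted p = 0.8845) in grade 2 did not pass. Rtp4, a receptor transporter gene, ran from 8.34 to 8.75 (median 8.53) in treated grade 3 and was 5.78 in 8584T3, 6.71 in 8629T10, 7.75 in 8629T12 and 8.36 in 8565T1 in untreated grade 3. In grade 2, Rtp4 was 8.65 in 8688T8, 8.71 in 8688T9, 8.57 in 8688T10 and 7.47 in 8639T4 with treatment and 8.34 in 8700T1, 8.34 in 8700T3, 8.28 in 8565T3 and 8.47 in 8565T4 without. Rtp4 overlapped in both grades, with 8565T1 at the treated level and 8639T4 under the untreated one. Its grade 3 difference was 1.18 (SE 0.43, adjusted p = 0.3502).

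Rsad2 encodes viperin, which makes a chain-terminating nucleotide. It ran from 7.48 to 8.73 (median 8.27) in treated grade 3 and was 6.00 in 8584T3, 6.10 in 8629T10, 7.09 in 8629T12 and 8.03 in 8565T1 in untreated grade 3. In grade 2, Rsad2 was 8.62 in 8688T8, 8.48 in 8688T9, 8.78 in 8688T10 and 8.33 in 8639T4 with treatment and 8.0 in 8700T1, 7.86 in 8700T3, 6.60 in 8565T3 and 7.72 in 8565T4 without. The grade 2 groups of Rsad2 did not overlap, and 8639T4 was here above the untreated tumours. The differences were 1.25 (SE 0.47, adjusted p = 0.3663) in grade 3 and 1.16 (SE 0.48, adjusted p = 0.659) in grade 2, which was the largest of the 21 fitted grade 2 differences. A second Rsad2 probe set, with a mean of 6.33, gave plain differences of group means of 1.23 and 1.26 in the same order, beside 1.39 and 1.01 for the one used.

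Eif2ak2 encodes PKR, the kinase that halts translation on binding double-stranded RNA. It ran from 6.88 to 8.05 (median 7.84) in treated grade 3 and was 7.43 in 8584T3, 7.84 in 8629T10, 7.82 in 8629T12 and 7.95 in 8565T1 in untreated grade 3. In grade 2, Eif2ak2 was 7.57 in 8688T8, 7.84 in 8688T9, 8.37 in 8688T10 and 6.79 in 8639T4 with treatment and 8.02 in 8700T1, 7.78 in 8700T3, 7.50 in 8565T3 and 7.85 in 8565T4 without. Its 2 lowest values of the 18 were in 8639T4 and 8688T3, the tumours with the 3′ excess, whose part in them was not tested. The fitted grade 3 difference was -0.24 (SE 0.33, adjusted p = 0.847), the only one of the 21 below 0, and it was 0.13 without both tumours. A second Eif2ak2 probe set had a plain grade 3 difference of 0.18, beside -0.03 for the one used.

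Bst2, which encodes the tether that holds budding virus particles, averaged 8.45 ± 0.17 (SD, n = 6) after treatment and 7.56 ± 0.88 (SD, n = 4) without it in grade 3, without overlap (0.69 (SE 0.38, adjusted p = 0.6259)). Ifi35, which encodes a leucine zipper protein, averaged 6.70 ± 0.12 (SD, n = 6) after treatment and 6.20 ± 0.20 (SD, n = 4) without it, also without overlap (0.45 (SE 0.17, adjusted p = 0.3885)). Lgals3bp, which encodes a secreted galectin-binding glycoprotein, averaged 9.38 ± 0.15 (SD, n = 6) after treatment and 8.95 ± 0.26 (SD, n = 4) without it, with overlap (0.35 (SE 0.17, adjusted p = 0.5757)). In grade 2 the differences of Bst2, Ifi35 and Lgals3bp were -0.33, 0.12 and -0.03, and their groups overlapped.

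**Figure D3:**
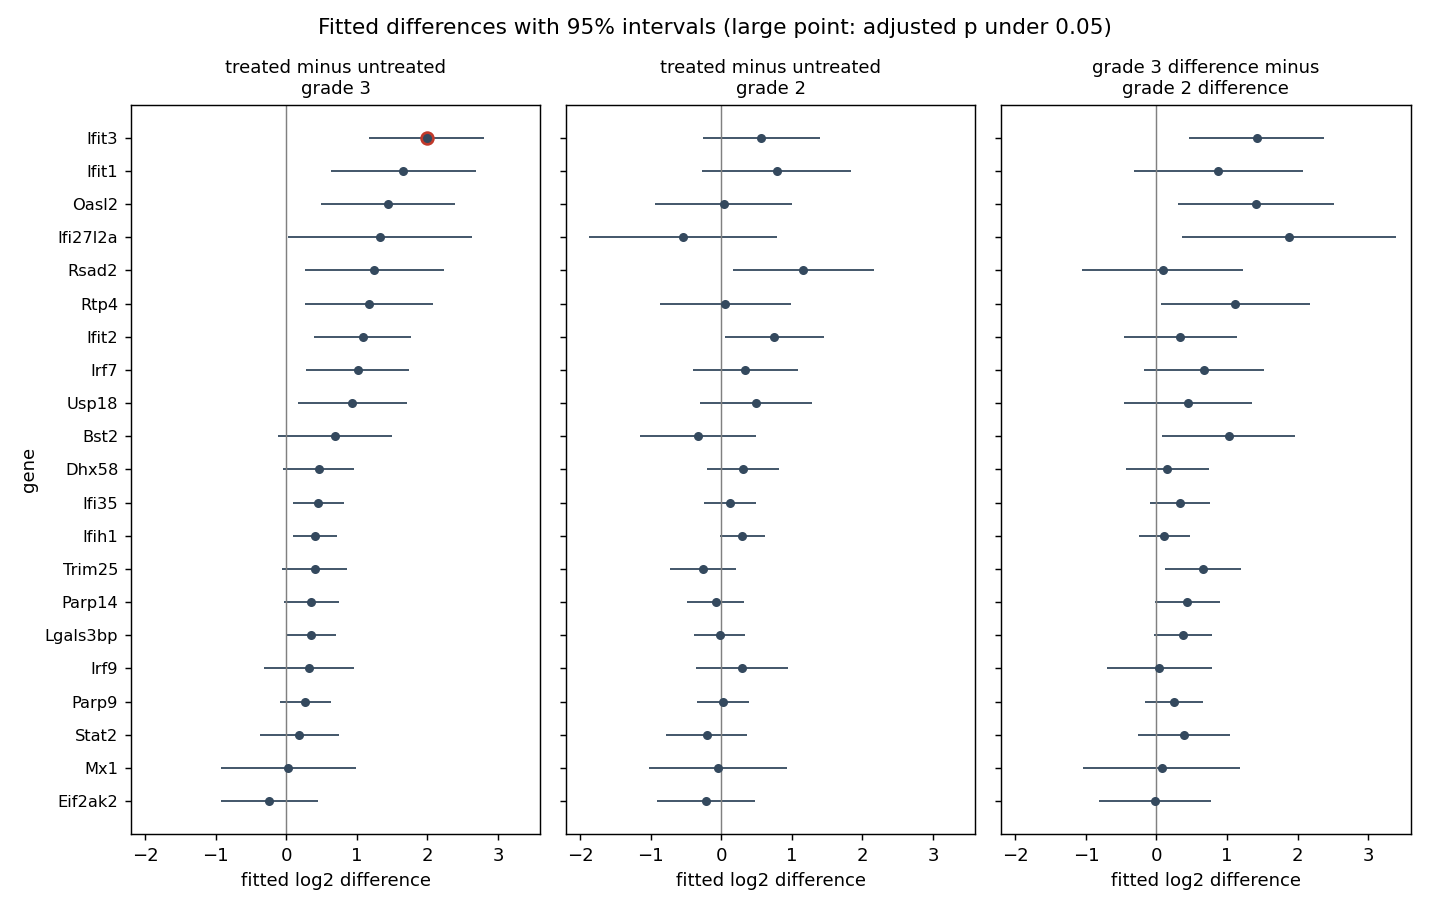
Fitted log2 differences with 95% intervals for the 21 tested genes: treated minus untreated in grade 3 (left) and in grade 2 (middle), and the grade 3 difference minus the grade 2 difference (right). Ifit3 in grade 3, at 1.99, is the only large point (adjusted p under 0.05), and 20 of 21 grade 3 points lie right of 0.

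Grade was the other comparison. In untreated tumours no member passed, where 0.0274% of all genes were called lower in grade 3 and 0.151% higher. Fitted differences lay below 0 for 19 of 21 members, against 50.1% of all genes, with a median of -0.36 against -0.00. Endothelial markers lay on the same side, with 0 of 9 above 0, a median of -0.64 and 4 lower at an unadjusted p under 0.05. So did the interferon-gamma genes, with 1 of 23 above 0, a median of -0.39 and 7 lower at that p. Of the lung epithelium, fibroblast and macrophage markers, 2 of 8, 1 of 8 and 5 of 13 lay above 0. The part of other cells in the members' differences was not tested. The lowest values were -1.45 (SE 0.56, adjusted p = 0.3002) for Ifi27l2a, -1.39 (SE 0.35, adjusted p = 0.1375) for Ifit3, -1.18 (SE 0.41, adjusted p = 0.2645) for Oasl2, -1.05 (SE 0.44, adjusted p = 0.3421) for Ifit1 and -1.03 (SE 0.39, adjusted p = 0.2952) for Rtp4, and these 5 were the members below -1, against 1.51% of all genes. Before adjustment, 7 of 21 were lower with p under 0.05, against 6.7% of all genes. No member was without overlap on the lower side, where 3.03% of all genes were, since 8565T1 reached the grade 2 range for every member or exceeded it.

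In treated tumours no member passed either, where 0% of all genes did by limma. The median grade difference was 0.09, against 0.02 over all genes, and 14 of 21 members lay above 0, against 55.5% of all genes. At an unadjusted p under 0.05, Lgals3bp (0.30) and Trim25 (0.34) were higher in grade 3, against 1.23% of all genes. Every one of the 4 comparisons of treatment and grade shares a group with 2 others, so their differences are not independent of each other.

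The tumours were then compared by mouse. The mean signal of the 25 measured members was 7.75 ± 0.11 (SD, n = 6) in grade 3 and 7.61 ± 0.41 (SD, n = 4) in grade 2 after treatment. Without treatment it was 6.84 ± 0.54 (SD, n = 4) in grade 3 and 7.43 ± 0.17 (SD, n = 4) in grade 2. By tumour, it was 6.36 in 8584T3, 6.46 in 8629T10, 7.04 in 8629T12 and 7.52 in 8565T1. In 8565T3, from the same mouse as 8565T1, it was 7.17, in 8565T4 it was 7.50, and in 8700T1 and 8700T3 it was 7.53 and 7.50. The treated tumour 8639T4 had 7.00, against 7.58 to 7.89 in the 9 tumours of mouse 8688. The 4 lowest means thus were those of 8584T3, 8629T10, 8629T12 and the treated tumour 8639T4, and not of all untreated grade 3 tumours. Mouse 8639 gave only 8639T4, which had a 3′ excess of 1.85, and 8688T3, with an excess of 2.62, had the lowest mean of mouse 8688, 7.58; the part of the excess in these means was not tested.

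Mouse 8688 carried 6 grade 3 and 3 grade 2 tumours after treatment. Within it, 12 of 25 members were higher in grade 3 and 13 lower, with a median difference of -0.02 (-0.50 to 0.37) and 1 member, Oasl1, lower without overlap. Over all 12393 measured genes, 57.8% were higher and 1.12% were lower without overlap. Mouse 8565 carried 1 grade 3 and 2 grade 2 untreated tumours. Within that mouse, 19 of 25 members were higher in the grade 3 tumour, against 49% of all measured genes, and 13 lay above both grade 2 tumours, against 28.7%, with none below both, against 29.8%. The median was 0.18, while over all untreated tumours the fitted median was -0.36. Each treatment thus had 1 mouse with both grades. The lower member signal of grade 3 seen across the untreated group was not found within mouse 8565. That comparison rests on 1 grade 3 tumour, 8565T1, and mouse 8688 was treated, so neither mouse can decide whether grade matters in untreated tumours.

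Single tumours were also set against the range of the 6 treated grade 3 tumours. Tumour 8565T1 lay inside that range for 14 of 25 members, against 2 for 8584T3, 3 for 8629T10 and 3 for 8629T12. The treated tumour 8639T4 was inside it for 5 and below it for 20. Set against the 4 untreated grade 2 tumours, 8565T1 was below the range for 0 members and above it for 7, whereas 8584T3 was below for 20, 8629T10 for 23, 8629T12 for 14 and 8639T4 for 15. The lowest of the 18 values was in 8584T3 for 11 members and in 8629T10 for 11. The SD was larger in untreated than in treated grade 3 for 21 of 25 members, with a median SD of 0.62 against 0.19, and the treated group is 1 mouse. The counts against ranges, of lowest values and of SDs were taken over the members only. Without the share over all genes, they describe the members and cannot show a trait particular to them.

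Without the untreated tumour 8565T1, 4 members passed in grade 3, Ifit3 with 2.52, Ifit1 with 2.25, Oasl2 with 2.04 and Ifit2 with 1.44, against 0.288% of all genes called higher. In the same fit, the interaction called Ifit3 (2.13, limma adjusted p = 0.02061) and Oasl2 (2.22, limma adjusted p = 0.03781), against 0.164% of all genes. The grade comparison of untreated tumours then called 5 members lower, Ifit3 with -2.10, Oasl2 with -2.00, Ifit1 with -1.86, Rtp4 with -1.70 and Ifit2 with -1.23, against 0.945% of all genes. With sex as a covariate, a term that rests on 8639T4, no member passed and the grade 3 median was 0.13 in place of 0.46, with Ifit1 at 0.81, Rtp4 at 0.21, Irf7 at 0.13 and Usp18 at 0.05. In that fit 14 of 21 members lay above 0 in grade 3, with Ifit3 at 1.95, Rsad2 at 1.02 and Trim25 at 0.52. The grade 2 median was then -0.25 in place of 0.06, with 5 of 21 members above 0. With no mouse term, 10 members passed in grade 3, against 2.01% of all genes called higher. The labels place 8565T1 in the group, so the fits that include it stand as the results. Ifit3 did not pass when 8688T1, 8688T3, 8629T10, 8629T12 or 8565T4 was left out in turn (adjusted p from 0.05653 to 0.11, differences from 1.70 to 2.00).

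**Figure D4:**
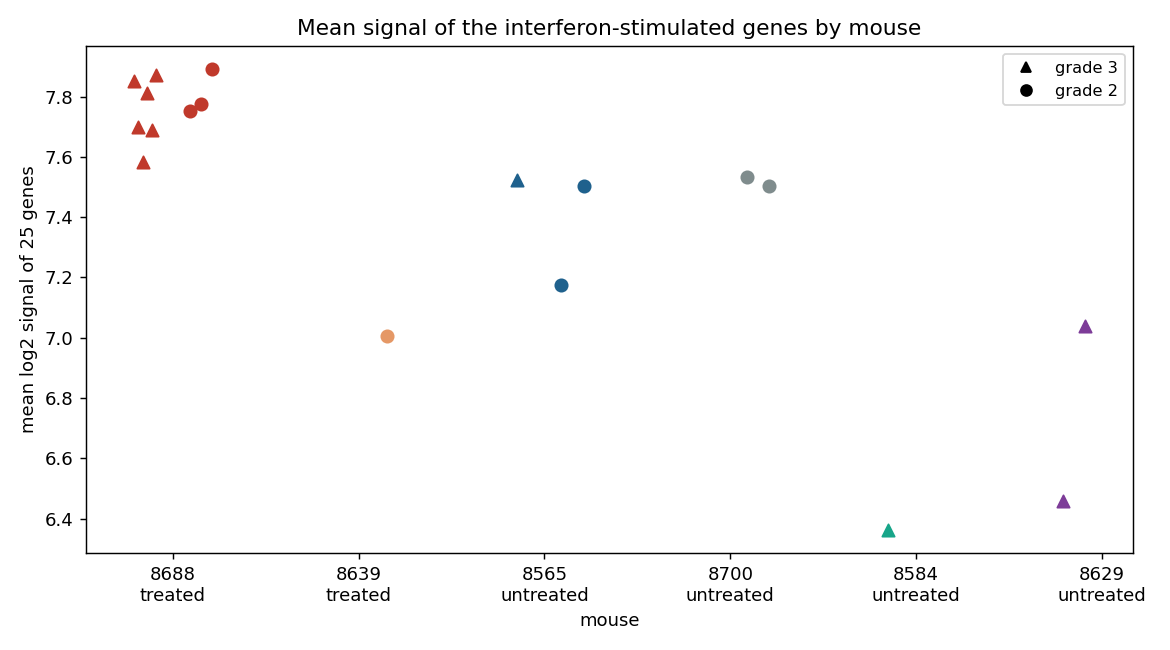
Mean log2 signal of the 25 measured genes in each tumour, by mouse and treatment; triangles are grade 3 tumours and circles grade 2. Tumours of mouse 8688 lie between 7.58 and 7.89 in both grades, those of mice 8565 and 8700 between 7.17 and 7.53, and mice 8639, 8584 and 8629 lie at or below 7.04.

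The rest of the pathway was read through lists of interferon ligands, receptors and signalling proteins, sensors, other induced genes and interferon-gamma genes, in none of which a gene passed for treatment in either grade. All 9 measured ligand genes, Ifnb1 and Ifng among them, lay below the array median in all 18 tumours, with list means of 2.22 to 2.46, and were not tested. Ifnb1, the interferon-beta gene, ran from 2.03 to 2.36. Of 17 tested receptor and signalling genes, 9 lay above 0 in grade 3 and 12 in grade 2, with medians of 0.02 and 0.06. In that list, Irf8, a transcription factor of myeloid cells, had a grade 2 difference of -0.86 (SE 0.30, limma adjusted p = 0.5096), Ifngr1, the interferon-gamma receptor, a grade 3 difference of 0.35 (SE 0.21), and Ptpn11, a phosphatase, one of 0.29 (SE 0.18). Of 11 tested sensor and adaptor genes, 4 lay above 0 in grade 3, with a median of -0.04. The DNA sensor gene Aim2 had a grade 3 difference of -0.70 (SE 0.29), Zbp1, which encodes a nucleic acid sensor, one of 0.63 (SE 0.31), and Myd88, which encodes an adaptor of Toll-like receptors, one of -0.31 (SE 0.16).

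Of 27 tested genes in the list of other interferon-induced genes, 21 lay above 0 in grade 3 with a median of 0.19, and 13 in grade 2 with a median of -0.01. Ifi44l had the largest difference, 1.74 (SE 0.43, limma adjusted p = 0.08859) in grade 3, and was 3.00 in 8584T3, 4.00 in 8629T10, 4.45 in 8629T12 and 5.59 in 8565T1. Tdrd7 had a grade 3 difference of 0.35 (SE 0.15), and Ifi204 a grade 2 difference of 0.98 (SE 0.43). Of 23 tested interferon-gamma genes, which are known to answer mainly to the interferon of T and NK cells, 19 lay above 0 in grade 3 (median 0.26) and 5 in grade 2 (median -0.21). Ciita, the activator of MHC class II genes, had a grade 2 difference of -0.87 (SE 0.36), and Psmb9, an immunoproteasome gene, one of -0.56 (SE 0.26).

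Targets of p53 were listed because treatment restored it. Of 16 tested, 13 lay above 0 in grade 3 and 11 in grade 2, with medians of 0.63 and 0.45, and none passed. Before adjustment, 10 were higher in grade 3 with limma p under 0.05, against 5.23% of all genes. In grade 2, 7 were, against 3.78% of all genes. The grade 3 differences were 0.80 (SE 0.20) for the cyclin gene Ccng1, 0.60 (SE 0.15) for the repair gene Ercc5 and 1.52 (SE 0.38) for Phlda3, whose product restrains AKT signalling. The list means per tumour were 8.40 to 9.08 in treated grade 3 and 8.50 to 8.76 in treated grade 2, against 7.77 to 8.01 in untreated grade 3 and 7.77 to 8.47 in untreated grade 2. Tumour 8639T4, low in the members, had a p53 target mean of 8.50, inside the range of mouse 8688 and close to the 8.47 of the untreated tumour 8700T1. Tumour 8565T1, whose member mean was the highest of untreated grade 3, had one of 7.85, inside the untreated range. Whether the members' signal goes with that of the p53 targets was not tested.

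Marker lists of other cells were given beside the members because the tumours are mixed tissue, and the part of other cells in the members' values was not tested. The 9 lung epithelium markers had list means of 10.84 to 11.40 in treated grade 3 and 10.78 to 11.17 in untreated grade 3. The 13 macrophage markers had 10.03 to 10.49 and 10.09 to 10.33, and the 9 fibroblast markers 9.71 to 9.98 and 9.56 to 10.01. The 15 T and NK cell markers, 7 of which were below the array median on all arrays, ran from 4.66 to 5.49 in treated and 4.20 to 5.36 in untreated grade 3. They were 4.20 in 8629T10, 4.23 in 8629T12, 5.36 in 8584T3 and 5.22 in 8565T1. The 9 endothelial markers ran from 7.69 to 8.15 in treated and from 7.40 to 8.20 in untreated grade 3, and were 7.59, 7.40 and 7.81 in 8584T3, 8629T10 and 8629T12. Of the endothelial markers 8 of 9 lay above 0 in grade 3 (median 0.39), with 1 of 9 above 0 in grade 2 (median -0.23) and none passing. The 7 plasmacytoid dendritic, 8 B and plasma cell and 8 neutrophil markers had medians of -0.45, -0.27 and 0.24 in grade 3 over the 2, 5 and 2 genes that could be tested.

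Outside the members, the 5 tested genes whose signal followed the members' mean most closely over the 18 tumours were Ifi44l (Pearson r = 0.89), Zbp1 (0.89), Trim12a (0.87), Fads2 (0.86) and Cmpk2 (0.85). These are descriptions over 18 tumours that share 6 mice, with the mean taken over the 21 tested members. Ifi44l, Zbp1 and Cmpk2, which encodes a nucleotide kinase next to Rsad2, are known interferon-induced genes, and Fads2, a fatty acid desaturase gene, is not usually counted among them. Ifi44l, Zbp1 and Fads2 were lowest in 8584T3, Cmpk2 was lowest in 8629T10, and Trim12a in 8629T12. Trim12a ran from 1.52 to 7.33, the widest of the 5.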

How the data were processed

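The values deposited by the authors are log2 signals, 1 per probe set and array; the submitters' processing notes name GCRMA 2.20.0 and R 2.11.0. The arrays were hybridised from 100 ng total RNA amplified to biotin-labelled cDNA, per the labels' protocols. GCRMA corrects background by probe sequence and brings the probe signals of all arrays to one distribution, so differences in total RNA are lost. Batches are not analysed here, since the labels name none.

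From these values, genes were named through probe sets with 1 symbol, and the probe set with the highest mean stood for a gene. Tests covered the 7300 genes that exceeded the array median on 4 or more arrays. A gene could pass through 1 group in which it was high. limma 3.58.1 in R 4.3.3 fitted 4 group means to all 18 tumours with the mouse as a random block (correlation 0.259, 14 residual and 3.8 prior degrees of freedom). The Benjamini-Hochberg adjustment ran over all tested genes for each of 5 comparisons, with a threshold of 0.05. Fitted differences weight tumours by the mouse correlation and can differ from differences of group means. The steps were tested on simulated data.

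The members, the other gene lists and the tests were chosen with earlier results of these data known. Values per tumour are given for the member that passed, the 6 members with the largest range and up to 2 more per role. In each pathway list with tested genes, the 3 with the smallest p in a treatment comparison are named, except under the interferon-gamma genes. There only 2, Ciita and Psmb9, are named. Marker lists are given by their levels, and outside the lists the 5 genes most correlated with the members' mean are named. Alternatives were no mouse term, mouse means, mouse as a fixed block, only the groups compared, sex as a covariate, another quantile normalisation, the mean over a gene's probe sets, no filter, a floor (log2 5 on 4 arrays), an intensity trend in the spread, and leaving out tumours or mice. The signal of the restored gene and part of the model's genotype are not reported here.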

Additional observations from a re-analysis of the deposited data

Results flagged for a closer look

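In groups of 4 or 6 tumours, 1 tumour stood far from the others for 8 members and for the members' mean in 2 groups. These were 10 cases of 104 tested, where chance gives about 1 in 20 for independent values. The cases share tumours and the mean is built from the members, so the count shows no excess over chance. The treated grade 2 tumour 8639T4, the only treated tumour outside mouse 8688 and one of the 2 with a 3′ excess, was the lowest of its group at 7.51 for Oasl2, 7.47 for Rtp4, 7.65 for Ifi27l2a and 7.00 for the mean of the 25 members. The untreated grade 2 tumour 8565T3 was the lowest of its group for that mean, at 7.17. The untreated grade 2 tumour 8565T4 was the lowest for Stat2, at 5.84, and the highest for Ifi35, at 7.06. Among treated grade 3 tumours, 8688T11 was the highest for Oas2, at 5.24, 8688T1 the highest for Irf7, at 7.10, and 8688T3, the other tumour with a 3′ excess, the lowest for Eif2ak2, at 6.88. The part of the 3′ excess in these values was not tested.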

How the results depend on the processing

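Treatment cannot be told apart from mouse and sex, so no alternative isolates it. The number of members called in grade 3, 1 in the reported fit, was 10 with no mouse term (2.01% of all genes higher) and 0 with mouse means, with sex as a covariate, with only the groups compared, without mouse 8629, and without 8688T3 and 8639T4 (0% to 0.233% of all genes). It was 2 without mouse 8565 (Ifit1 and Ifit3; 0.164% of all genes), and ran from 0 to 4 when single tumours were left out, with 0 without 8688T1, 8688T3, 8629T10, 8629T12 or 8565T4 and 4 without 8565T1 (0.288% of all genes). It stayed at 1 under a further quantile normalisation, no filter, the floor, the mean of probe sets and the intensity trend. Ifit3 kept its direction under all alternatives run, from 1.52 (adjusted p = 0.1741, without mouse 8629) to 2.52 (adjusted p = 0.0008179, without 8565T1). It had adjusted p = 0.9998 with mouse means, 0.2959 with sex as a covariate and 0.0927 with only the groups compared. With sex as a covariate, a term that rests on 8639T4, the median fell to 0.13 in grade 3 and to -0.25 in grade 2, and the grade 3 difference changed sign for Irf9 (-0.44), Stat2 (-0.62), Mx1 (-0.57), Dhx58 (-0.049), Bst2 (-0.44) and Ifi27l2a (-0.38). With single tumours left out, Mx1 ran from -0.27 (without 8629T10) to 0.34 (without 8629T12) and was also below 0 without 8688T2, 8688T5, 8584T3 or 8565T4, as it was without mouse 8584 (-0.028) and without mouse 8700 (-0.035). Eif2ak2 changed sign without 8688T3 and 8639T4 (0.13). The interaction called 1 member without mouse 8565 (0.0411% of all genes), with a median difference of 0.79, and 0 to 2 when single tumours were left out, with a median from 0.28 without 8629T10 to 0.78 without 8565T1; it has no value for only the groups compared. The grade comparison of untreated tumours called 1 member lower with no mouse term (0.767% of all genes), 1 without mouse 8565 (0.0548%) and 0 to 5 when single tumours were left out, with 5 without 8565T1 (0.945%). Its median was 0.18 with the mouse as a fixed block, which rests on mouse 8565. Without the filter, Mx2 and Oas3 had grade 3 differences of 0.68 and 1.29 (adjusted p = 0.203 and 0.3477). The causes of these changes were not tested. No paired analysis was possible because the replicate numbers only name tumours, and for treatment no mouse carried both groups; for grade, the fixed block compares tumours within mice 8688 and 8565. The number of mice limits every comparison.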
